A study of Homo sapiens with 15 samples.

Results

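The epidermal growth factor (EGF) receptor genes described here are 10: the ligand genes AREG, EREG, HBEGF, TGFA, BTC and EPGN, the receptor genes EGFR, ERBB2 and ERBB3, and ERRFI1, which encodes an inhibitor of the receptor. They were taken by symbol from a table of 62754 genes, and all 10 were found and passed the filter on low counts. MCF10A is a non-tumorigenic human breast epithelial cell line, wild type by its label, maintained with a mammary supplement kit, which supplies EGF, insulin and hydrocortisone, and with cholera toxin, an agent that raises cyclic AMP. Total RNA was sequenced from cells in glutamine-free DMEM/F12 with glutamine added back to 0.04, 0.12, 0.20 or 0.28 mM (the limited groups), and from cells in DMEM/F12 with its normal 2.5 mM (full medium). Each group had 3 biological replicates, 15 libraries in all. The limited groups therefore differ from full medium in the base medium as well as in the amount of glutamine, and the time spent in each medium is not given in the sources used here.

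The ligands are made as membrane-anchored precursors, are cut loose by ADAM-family proteases, and bind EGFR on the same or a neighbouring cell. Bound EGFR pairs with a second EGFR or with ERBB2 or ERBB3 and signals through adaptors to RAS and ERK, and the genes for several ligands are themselves induced by ERK. Epithelial cells of the breast depend on this loop: amphiregulin, the AREG product, drives duct growth in mice, and MCF10A cells need an EGF receptor ligand to divide.

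The libraries held 3704170 to 13361406 gene counts, and 1.03 to 1.58% of all counts were ERCC spike-in RNA. The cells matched their label: all 12 basal and epithelial marker genes averaged at least 1 CPM (counts scaled by library size), and CDKN2A, a gene deleted in MCF10A, had 0 counts in every library. Of 8 luminal markers, 4 averaged at least 1 CPM, with a summed level of 479 to 593 CPM at 0.04 mM and 486 to 610 CPM in full medium. Of markers of other cells, COL1A1, DCN and FAP of 8 fibroblast genes, PECAM1 of 6 endothelial genes and CD14 of 6 immune genes averaged at least 1 CPM. The summed fibroblast level was 65.1 to 74.3 CPM at 0.04 mM and 46.1 to 57.4 CPM in full medium, with LUM at 0. The summed endothelial level was 6.45 to 12.7 CPM at 0.04 mM and 3.88 to 5.81 CPM in full medium, with CDH5 and CLDN5 at 0. The summed immune level was 1.89 to 2.80 CPM at 0.04 mM and 1.57 to 1.81 CPM in full medium, with CD3E at 0. The part of these genes in the results was not tested, and in bulk RNA fewer cells of a type and less RNA per cell cannot be told apart. Mitochondrial ribosomal RNA took 2.97% of counts in replicate 3 at 0.04 mM and 1.62% in replicate 3 at 0.12 mM, and under 1% in the other libraries.

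In the RefSeq annotation of GRCh38.p14, AREG spans chr4:74445136-74455005, EREG chr4:74365145-74388749 and EPGN chr4:74308470-74316789, all on the plus strand, and BTC chr4:74744759-74794523 on the minus strand. HBEGF spans chr5:140332843-140346603 and TGFA chr2:70447284-70553826, both on the minus strand. EGFR spans chr7:55019017-55211628, ERBB2 chr17:39688094-39728658 and ERBB3 chr12:56080108-56103505, all on the plus strand, and ERRFI1 chr1:8011727-8026309 on the minus strand. The genes EPGN, EREG, AREG and BTC lie next to each other on chromosome 4, in that order, between MTHFD2L and PARM1. From the end of EPGN to the start of EREG there are 48.4 kb, from EREG to AREG 56.4 kb, and from AREG to BTC 290 kb. The promoters of EPGN, EREG and AREG are shown because these genes share a location and a strand and differed in level. RefSeq windows (GRCh38.p14) were found for 9 of the 10 genes, and those printed are on the plus strand. Each printed stretch is 240 bases, 5′ to 3′, with 10 bases left out between its end and the annotated transcription start. Capitals mark the TATA box and the CRE (cyclic AMP response element, TGACGTCA), the palindrome bound by CREB-family factors.
EPGN, chr4:74308220-74308459: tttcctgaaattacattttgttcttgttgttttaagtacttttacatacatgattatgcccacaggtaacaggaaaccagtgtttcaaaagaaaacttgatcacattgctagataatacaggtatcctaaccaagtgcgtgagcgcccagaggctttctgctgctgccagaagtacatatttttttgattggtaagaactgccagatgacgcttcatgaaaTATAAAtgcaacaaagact
EREG, chr4:74364895-74365134: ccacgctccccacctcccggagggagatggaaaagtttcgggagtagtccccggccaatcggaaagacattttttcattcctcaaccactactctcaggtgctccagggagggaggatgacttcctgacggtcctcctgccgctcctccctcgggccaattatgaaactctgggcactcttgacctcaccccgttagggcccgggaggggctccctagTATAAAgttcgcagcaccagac
AREG, chr4:74444886-74445125: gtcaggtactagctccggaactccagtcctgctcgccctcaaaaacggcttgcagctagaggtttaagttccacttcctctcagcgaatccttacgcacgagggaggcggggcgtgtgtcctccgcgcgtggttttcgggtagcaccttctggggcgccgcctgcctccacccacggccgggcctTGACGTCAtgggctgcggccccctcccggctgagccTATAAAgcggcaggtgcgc

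The TATA box, searched as TATAAA, began at position -29 in EPGN, -32 in EREG and -29 in AREG, counted from the start site. The same letters began at -146 and -36 in the second of the EGFR windows. The CRE began at -65 in AREG and was in no other window of the 9 genes. Motifs were searched on both strands in windows from 250 bases before to 50 bases after the start, and no match in the 9 genes overlapped another. Of 35116 such windows, 1.85% held the CRE and 11.5% the TATA box. The AP-1 motif, searched as TGANTCA, was in 7.71% of windows, among them that of ERBB2, at -222, and the second of the EGFR windows. The C/EBP-ATF element, searched as TGATGNAA, was in 3.62% of windows and in none of the 9 genes. These matches describe letters in the sequence and no binding was measured.

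AREG dominated the ligand transcripts. Per length, as RPKM (CPM per kilobase of exon), AREG averaged 596 over the 15 libraries, against 74.1 for EPGN, which encodes epigen, and 9.67 for TGFA, which encodes transforming growth factor alpha. EREG, for epiregulin, averaged 6.28 RPKM and HBEGF, for heparin-binding EGF-like growth factor, 3.94 RPKM. BTC, for betacellulin, averaged 0.290 RPKM from 2 to 15 counts per library, so its values rest on few reads. Among receptors EGFR averaged 67.5 RPKM, ERBB2 7.06 RPKM and ERBB3 0.537 RPKM, so that EGFR made up 89.8% ± 1.09 of the receptor RPKM (SD, n = 15). ERRFI1 averaged 13.5 RPKM. These levels depend on exon lengths from GENCODE 29.

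**Figure D1:**
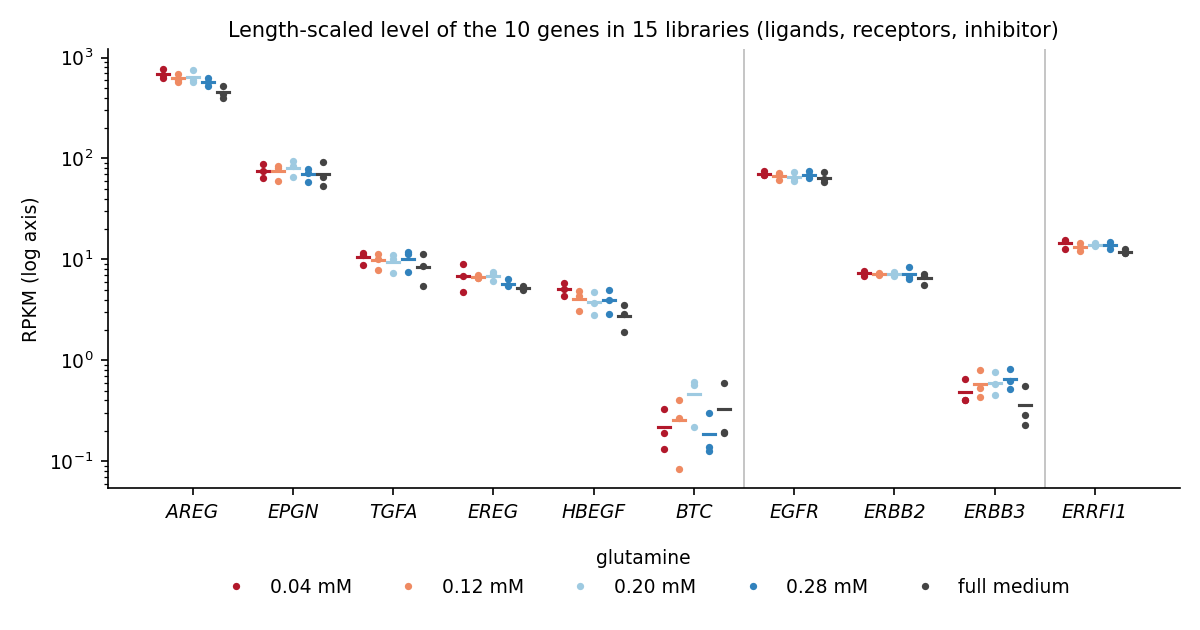
RPKM (log axis) of each gene in each library, coloured by glutamine group, with a bar at each group mean. AREG stands highest in all 5 groups and BTC and ERBB3 lowest. The groups of 1 gene lie much closer together than the highest and lowest genes do, though some genes, such as EPGN and EGFR, overlap.

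AREG and 5 other genes, HBEGF, ERBB3, EREG, TGFA and ERRFI1, rose with limited glutamine when the 4 limited groups were averaged against full medium and libraries of the same replicate number were compared with each other. EGFR itself, ERBB2, EPGN and BTC did not pass the test. Changes below are log2 fold changes of limited groups over full medium with 1 standard error, and each adjusted p comes from edgeR's quasi-likelihood test with Benjamini-Hochberg adjustment over 13828 genes. Libraries that share a replicate number resembled each other, so the number was entered as a block, and a gene is said to have risen where its adjusted p with that block was under 0.05. Without the block none of the 10 genes passed in any comparison, where 0.0434% of all genes passed at 0.04 mM, 0 at 0.12 mM, 0.0145% at 0.20 mM, 0 at 0.28 mM and 0.289% for the mean of the limited groups. Unadjusted p without the block was under 0.05 for 4 of the 10 genes at 0.04 mM, 3 at 0.12 mM, 3 at 0.20 mM, 2 at 0.28 mM and 5 for the mean of the limited groups. Of all 13828 genes tested, 1609, 1111, 1415 and 616 had such a p in order of concentration, and 1792 for the mean. Of the 10 genes, DESeq2 without the block called AREG alone, at 0.04 mM (adjusted p = 0.006234) and for the mean (adjusted p = 0.004752). DESeq2 called 155 and 242 of all 13828 genes in these comparisons.

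With the block, 6 of the 10 genes rose and 0 fell for the mean of the limited groups, where 8.67% of all genes tested rose and 8.37% fell. At 0.04 mM, 4 of 10 rose (AREG, HBEGF, EREG and TGFA), where 7.21% of all genes rose and 6.23% fell. At 0.12 mM, 3 of 10 rose (AREG, ERBB3 and EREG), where 4.41% of all genes rose and 3.90% fell. At 0.20 mM, 4 of 10 rose (AREG, ERBB3, EREG and EPGN), where 7.67% of all genes rose and 7.15% fell. At 0.28 mM, 2 of 10 rose (AREG and ERBB3), where 1.23% of all genes rose and 0.846% fell. None of the 10 fell at any concentration. The 4 concentrations share the same full medium libraries, so their counts are not independent. The median change of the 10 genes for the mean of the limited groups was 0.23, against 0.00 for all genes tested. The 10 genes were chosen with earlier results of these data known, so these counts and medians are descriptions and do not test the set.

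**Figure D2:**
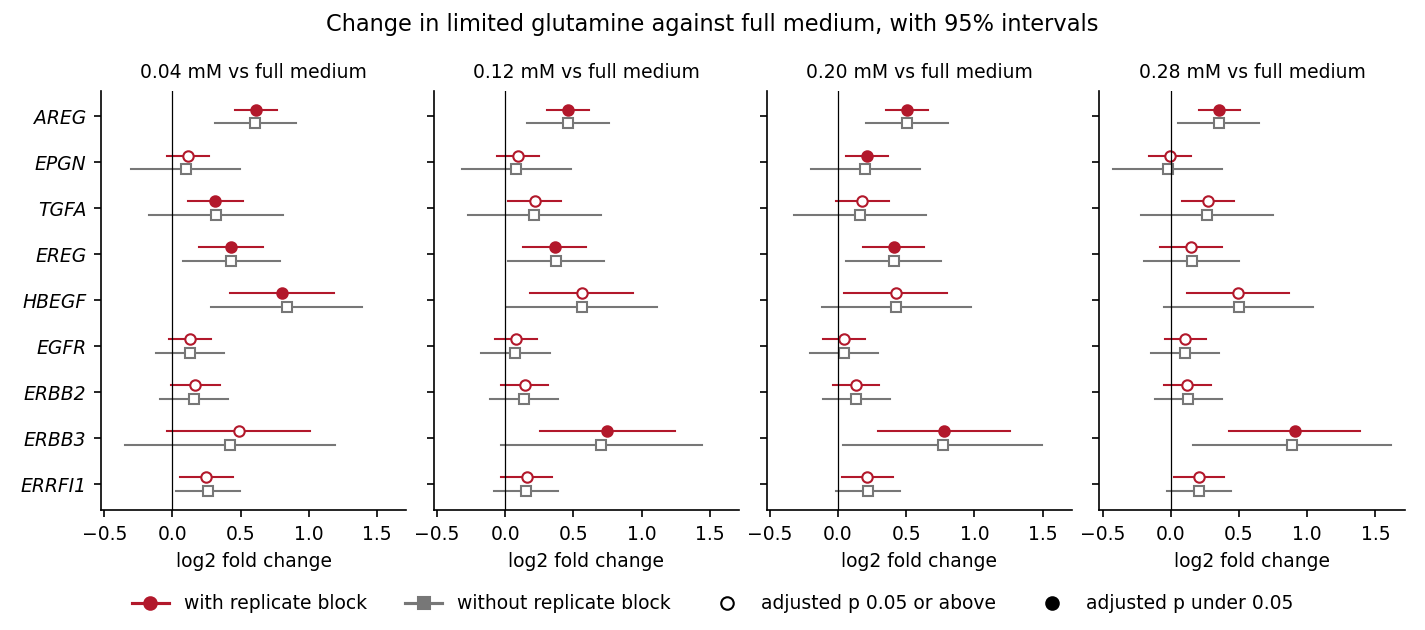
Log2 fold change (x axis) of 9 genes at each limited concentration over full medium, with 95% intervals, from the fit with the replicate block (red circles) and without it (grey squares). Filled symbols have an adjusted p under 0.05: AREG is filled with the block at all 4 concentrations, and no grey square is filled.

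AREG rose at every limited concentration. Its level was 1029, 1263 and 1112 CPM at 0.04 mM, 933, 1140 and 997 CPM at 0.12 mM, 990, 1243 and 938 CPM at 0.20 mM, and 854, 1041 and 954 CPM at 0.28 mM, against 714, 868 and 652 CPM in full medium. Every limited library stood above the full medium library of its own replicate number, in 12 of 12 pairs. The groups did not overlap with full medium at 0.04, 0.12 and 0.20 mM, whereas at 0.28 mM replicate 1 lay just under the highest full medium library. The change was 0.61 (SE 0.0749, adjusted p = 2.504e-06) at 0.04 mM and 0.46 (SE 0.0749, adjusted p = 0.0002249) at 0.12 mM. It was 0.50 (SE 0.0748, adjusted p = 4.432e-05) at 0.20 mM and 0.36 (SE 0.0748, adjusted p = 0.01168) at 0.28 mM. Averaged over the limited groups it was 0.48, a fold of 1.40, with adjusted p = 2.397e-06 with the block and adjusted p = 0.09083 without it.

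Group means of AREG ran from 1135 ± 119 CPM at 0.04 mM over 1057 ± 163 at 0.20 mM, 1023 ± 106 at 0.12 mM and 950 ± 93.8 at 0.28 mM to 745 ± 111 CPM in full medium (SD, n = 3 each). Neighbours in this order differed by less than the larger SD, except 0.28 mM and full medium. With library sizes scaled to the ERCC spike-ins the median of all genes moved to -0.18 at 0.12 mM and -0.13 at 0.28 mM with the block. On that scale AREG was at 0.28 at 0.12 mM (adjusted p = 0.1403) and at 0.23 at 0.28 mM (adjusted p = 0.3695), which is 0.45 and 0.36 above those medians. The call at 0.28 mM also ended when replicate 1 at 0.28 mM (0.38, adjusted p = 0.05812), replicate 3 at 0.28 mM (0.30, adjusted p = 0.1956) or replicate 3 in full medium (0.29, adjusted p = 0.06774) was left out.

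The mean share of AREG in the ligand pool was higher in each limited group than in full medium. These shares were not tested, and as AREG is most of the pool, its share and the sum follow its own level. At 0.20 mM the lowest share, 85.0%, lay under the highest of full medium, 85.3%. AREG made up 87.6% ± 0.400 of the summed ligand RPKM at 0.04 mM, 86.7% ± 0.891 at 0.12 mM, 86.3% ± 1.14 at 0.20 mM and 86.6% ± 0.377 at 0.28 mM, against 83.9% ± 1.26 in full medium (SD, n = 3 each). The summed ligand RPKM was 787 ± 85.9 at 0.04 mM and 539 ± 84.4 in full medium. The other 5 ligand genes together had 98.0 ± 13.9 RPKM at 0.04 mM and 87.1 ± 18.3 RPKM in full medium, a difference within the larger SD. The summed receptor RPKM was 78.0 ± 4.14 at 0.04 mM and 71.1 ± 8.34 in full medium, a difference within the larger SD.

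**Figure D3:**
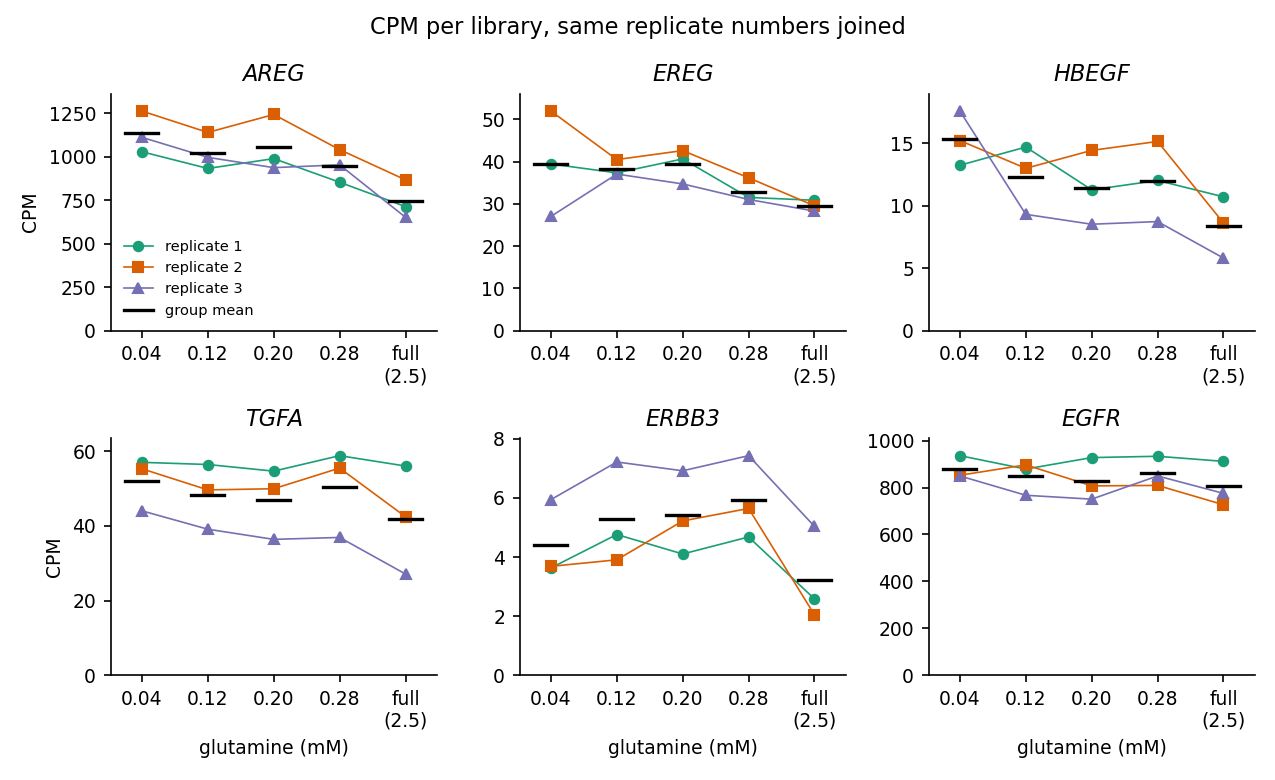
CPM of AREG, EREG, HBEGF, TGFA, ERBB3 and EGFR in each library (y axis from 0) by glutamine concentration (x axis, full medium at the right), with libraries of the same replicate number joined and a black bar at each group mean. AREG, HBEGF and ERBB3 are lowest in full medium along every line, while the line of replicate 3 lies lowest for TGFA and highest for ERBB3.

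HBEGF encodes a ligand that binds EGFR and also ERBB4. HBEGF had 13.2, 15.2 and 17.6 CPM at 0.04 mM, 14.7, 13.0 and 9.31 CPM at 0.12 mM, 11.3, 14.4 and 8.52 CPM at 0.20 mM, and 12.01, 15.1 and 8.73 CPM at 0.28 mM, against 10.7, 8.62 and 5.81 CPM in full medium. All 3 libraries at 0.04 mM were above all full medium libraries, and replicate 3 was the lowest of its group everywhere except at 0.04 mM, where it was the highest. HBEGF rose at 0.04 mM by 0.80 (SE 0.188, adjusted p = 0.00407). At the other concentrations its change was 0.56 (adjusted p = 0.05401) at 0.12 mM, 0.42 (adjusted p = 0.1199) at 0.20 mM and 0.49 (adjusted p = 0.1609) at 0.28 mM. For the mean of the limited groups HBEGF rose by 0.57 (SE 0.150, adjusted p = 0.007452, higher in 12 of 12 pairs). That call ended without replicate 2 (adjusted p = 0.09572) or replicate 3 (adjusted p = 0.06369) of full medium, and the call at 0.04 mM ended with replicate 3 left out in all groups (0.54, adjusted p = 0.08588).

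EREG, the neighbour of AREG, encodes a ligand with lower affinity for EGFR than EGF. EREG had 39.4, 51.9 and 27.0 CPM at 0.04 mM, 37.3, 40.5 and 37.0 CPM at 0.12 mM, 40.6, 42.6 and 34.7 CPM at 0.20 mM, and 31.5, 36.2 and 31.0 CPM at 0.28 mM, against 30.8, 29.5 and 28.3 CPM in full medium. At the 3 higher limited concentrations every library was above full medium, whereas at 0.04 mM the libraries spread more widely than anywhere else and replicate 3 lay below full medium. EREG rose by 0.43 (SE 0.115, adjusted p = 0.01111) at 0.04 mM, 0.36 (SE 0.113, adjusted p = 0.03957) at 0.12 mM and 0.41 (SE 0.111, adjusted p = 0.01153) at 0.20 mM. At 0.28 mM its change was 0.15 (adjusted p = 0.5541). The call at 0.04 mM ended without replicate 2 at 0.04 mM (0.25, adjusted p = 0.2303) or replicate 2 of full medium (0.34, adjusted p = 0.1017). The call at 0.12 mM was the least stable, ending under 8 of 14 alternatives: without any 1 of the 3 libraries at 0.12 mM (0.31 to 0.40, adjusted p up to 0.1435), without replicate 2 of full medium (0.27, adjusted p = 0.2311), and under 4 others. The call at 0.20 mM ended without replicate 1 at 0.20 mM (0.38, adjusted p = 0.07433) or replicate 2 of full medium (0.32, adjusted p = 0.09437). For the mean of the limited groups EREG rose by 0.34 (SE 0.0898, adjusted p = 0.008554, higher in 11 of 12 pairs), a call that ended without replicate 2 of full medium (0.25, adjusted p = 0.1484). On the spike-in scale the calls at all 3 concentrations and for the mean ended, with the mean at 0.24 (adjusted p = 0.1784), which is 0.33 above the median of all genes on that scale.

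TGFA and EPGN varied more with replicate number than with glutamine. TGFA had 57.0, 55.3 and 44.0 CPM at 0.04 mM, 56.5, 49.7 and 39.1 CPM at 0.12 mM, 54.7, 49.96 and 36.4 CPM at 0.20 mM, and 58.8, 55.5 and 36.9 CPM at 0.28 mM, against 56.0, 42.5 and 27.1 CPM in full medium. Replicate 1 was the highest and replicate 3 the lowest in all 5 groups, and all limited groups overlapped with full medium. TGFA rose at 0.04 mM by 0.31 (SE 0.0987, adjusted p = 0.03025), a call that 9 of 14 alternatives ended, and for the mean of the limited groups by 0.24 (SE 0.0765, adjusted p = 0.0247). The call for the mean ended without replicate 2 (0.21, adjusted p = 0.1535) or replicate 3 (0.15, adjusted p = 0.2507) of full medium, with replicate 3 left out in all groups (0.16, adjusted p = 0.2366), and on the spike-in scale (0.17, adjusted p = 0.3555). Without replicate 3 of full medium and without the block its change was -0.02 at 0.12 mM and -0.07 at 0.20 mM. EPGN had 115, 159 and 136 CPM at 0.04 mM, 108, 146 and 152 CPM at 0.12 mM, 119, 170 and 151 CPM at 0.20 mM, and 106, 142 and 129 CPM at 0.28 mM, against 97.9, 166 and 119 CPM in full medium. EPGN overlapped with full medium in every group and was lowest in replicate 1 throughout. It rose at 0.20 mM by 0.21 (SE 0.0741, adjusted p = 0.04956), a call that 9 of 14 alternatives ended, and its change for the mean of the limited groups was 0.10 (SE 0.0592, adjusted p = 0.2434). BTC had a change of -0.28 (SE 0.436, 95% interval -1.16 to 0.61) for the mean of the limited groups, an interval too wide at this depth to place it.

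EGFR, the receptor shared by all of these ligands, had 936, 852 and 849 CPM at 0.04 mM, 879, 897 and 767 CPM at 0.12 mM, 928, 807 and 750.5 CPM at 0.20 mM, and 933, 809 and 849 CPM at 0.28 mM, against 911, 727 and 775 CPM in full medium. Every limited group overlapped with full medium. Its change for the mean of the limited groups was 0.09 (SE 0.0591, 95% interval -0.03 to 0.21, adjusted p = 0.3231), and at single concentrations it lay between 0.04 at 0.20 mM and 0.13 at 0.04 mM. Scaled to the spike-ins EGFR was at -0.10 at 0.12 mM, -0.01 at 0.20 mM and -0.02 at 0.28 mM, where the median of all genes was at -0.18, -0.04 and -0.13, so that EGFR lay 0.08, 0.04 and 0.11 above it. ERBB2, which has no known soluble ligand and acts as partner of the other receptors, averaged 75.2 CPM at 0.04 mM, 74.2 at 0.12 mM, 73.9 at 0.20 mM and 73.6 at 0.28 mM, against 67.3 CPM in full medium. The change of ERBB2 for the mean was 0.14 (SE 0.0674, 95% interval 0.00 to 0.28, adjusted p = 0.1569). Of the ERBB2 exons, 7.41% overlap MIEN1 or PGAP3 on the other strand, and no strand rule for the counting is given in the sources used here.

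ERBB3, the receptor for neuregulins whose kinase is weak, was the receptor gene that rose, from a low level. ERBB3 had 3.63, 3.69 and 5.94 CPM at 0.04 mM, 4.76, 3.91 and 7.22 CPM at 0.12 mM, 4.11, 5.22 and 6.92 CPM at 0.20 mM, and 4.68, 5.65 and 7.43 CPM at 0.28 mM, against 2.59, 2.05 and 5.04 CPM in full medium. Replicate 3 was the highest in every group, and each limited library was above full medium of its own number in 12 of 12 pairs although the groups overlapped. The counts behind these values were 19 to 65 per library. ERBB3 rose by 0.75 (SE 0.242, adjusted p = 0.04633) at 0.12 mM, 0.78 (SE 0.237, adjusted p = 0.02296) at 0.20 mM and 0.91 (SE 0.235, adjusted p = 0.03086) at 0.28 mM, and its change at 0.04 mM was 0.49 (SE 0.258, adjusted p = 0.2223). For the mean it rose by 0.73 (SE 0.199, adjusted p = 0.008539), a call that ended without replicate 2 of full medium (0.57, adjusted p = 0.09676). The calls at single concentrations ended under 11 of 14 alternatives at 0.12 mM, 7 of 14 at 0.20 mM and 8 of 13 at 0.28 mM.

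ERRFI1 encodes MIG6, which binds the EGFR kinase and blocks it, and is itself induced by EGFR signalling. ERRFI1 had 52.9, 65.1 and 63.0 CPM at 0.04 mM, 55.4, 61.1 and 50.3 CPM at 0.12 mM, 56.5, 60.6 and 57.7 CPM at 0.20 mM, and 58.7, 52.6 and 62.2 CPM at 0.28 mM, against 52.9, 48.8 and 48.4 CPM in full medium. Every limited library was above its full medium partner in 12 of 12 pairs, and the groups did not overlap at 0.04 and 0.20 mM, though replicate 1 at 0.04 mM exceeded the highest full medium library by less than 1 CPM. ERRFI1 rose for the mean of the limited groups by 0.21 (SE 0.0731, adjusted p = 0.04831), but 15 of 22 alternatives ended that call. At single concentrations its change lay between 0.16 at 0.12 mM and 0.25 at 0.04 mM, with no call.

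By groups that did not overlap, 3 of the 10 genes at 0.04 mM (AREG, HBEGF and ERRFI1) had every limited library above every full medium library, where 6.95% of all genes did. The count was 2 of 10 at 0.12 mM (AREG and EREG), where 5.53% of all genes did, and 3 of 10 at 0.20 mM (AREG, EREG and ERRFI1), where 7.15% did. It was 1 of 10 at 0.28 mM (EREG), where 4.34% did. With all 12 limited libraries set against the 3 full medium libraries it was 0 of 10, where 1.24% of all genes did.

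Among the limited groups themselves no graded change passed the test. For 0.04 against 0.28 mM, 0 of the 10 genes passed with or without the block, where 0.0434% of all genes passed with it. The change of AREG was 0.26 (adjusted p = 0.2408 with the block), although DESeq2 with the block called it (adjusted p = 0.017), where DESeq2 called 23 of all 13828 genes. For the slope over log2 glutamine concentration in the 12 limited libraries, 0 of 10 passed in either fit and 0 of all genes did. AREG had a slope of -0.08 per doubling (adjusted p = 0.4189 with the block), again called by DESeq2 with the block (adjusted p = 0.03118), where DESeq2 called 24 of all genes. Unadjusted p with the block was under 0.05 for AREG and EREG between 0.04 and 0.28 mM, for AREG and HBEGF in the slope, and for none of the 10 without the block. Of all 13828 genes tested, 1247 had such a p between 0.04 and 0.28 mM and 1063 in the slope with the block. Without it the all-gene counts were 284 and 306.

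Replicate number and glutamine took different shares of the variance in each gene. Of the variance of log2 CPM over the 15 libraries, 68.2% lay between glutamine groups and 27.1% between replicate numbers for AREG. ERRFI1 had 48.3% between groups and 2.97% between replicate numbers. TGFA had 16.2% between groups and 74.3% between numbers, and EPGN 11.6% and 78.7%. EGFR had 16.4% between groups and 57.7% between numbers, below the median of all genes tested for groups (23.9%) and above it for numbers (37.4%). For ERBB3 the shares were 42.3% and 49.3%, and for HBEGF 49.9% and 23.9%. For EREG they were 41.8% and 29.2%, for ERBB2 22.8% and 32.7%, and for BTC 22.8% and 50.8%.

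**Figure D4:**
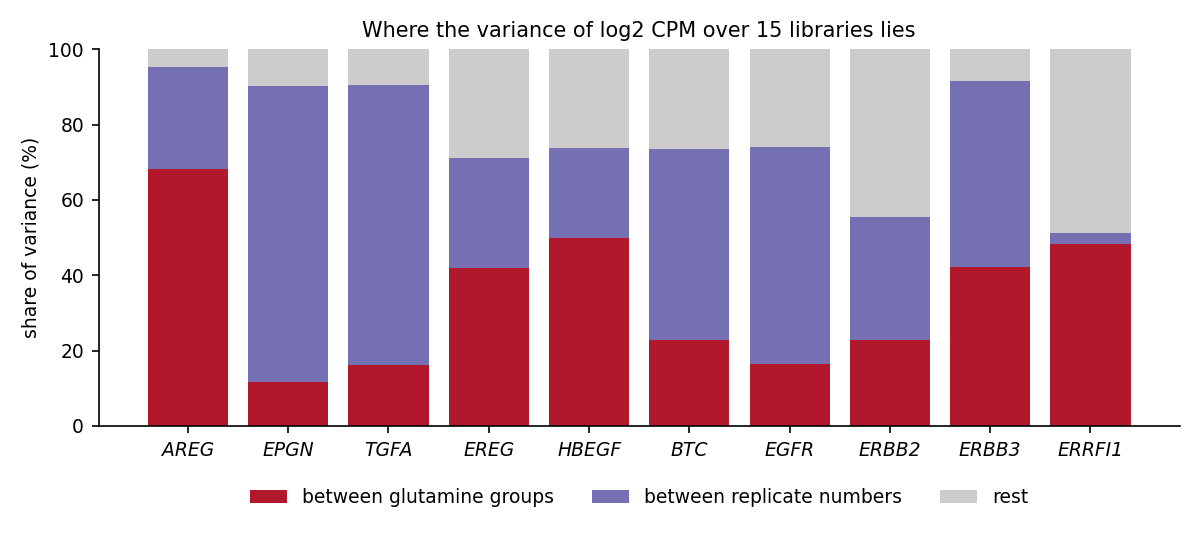
Stacked bars of the share of variance (%) of log2 CPM over the 15 libraries that lies between glutamine groups (red), between replicate numbers (purple) and in the rest (grey). AREG has the tallest red part at 68.2%, and EPGN (78.7%) and TGFA (74.3%) the tallest purple parts.

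With the mean of each replicate number removed, the genes whose log2 CPM over the 15 libraries was most like AREG, among 10376 genes, were KYNU (Pearson r 0.968), FRMD4B (0.963), NT5E (0.955), WSB1 (0.955) and ROS1 (0.952). Of the other EGF receptor genes, HBEGF had r 0.784 with AREG, TGFA 0.761, ERRFI1 0.692, EREG 0.659, ERBB2 0.606, ERBB3 0.597, EPGN 0.555, EGFR 0.494 and BTC -0.0875. Most like EGFR were DPYSL2 (0.939), PXDN (0.928), PTPN14 (0.922), UBE3B (0.918) and CLSTN1 (0.916). These values are descriptions: they share the same libraries and groups, and EREG, next to AREG on the chromosome, ranked 1200 in likeness to it.

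Genes around the receptor were counted from lists of the pathway. The lists too were chosen with earlier results of these data known, so their counts and medians are descriptions and do not test a set. Of 6 other ERBB ligand and receptor genes, NRG1 and NRG2 passed the filter. NRG1, a neuregulin that binds ERBB3, fell by 0.48 (SE 0.0968), with adjusted p = 0.0007261 with the block and adjusted p = 0.357 without it, at 19.1 ± 4.95 CPM over the 12 limited libraries and 26.4 ± 5.46 CPM over the 3 full medium libraries (SD). NRG2 had a change of 0.48 (SE 0.295, adjusted p = 0.2755). EGF itself had 0 to 9 counts per library, ERBB4 0 to 3 and NRG3 0.

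Of 7 genes that govern ligand release, 1 rose and 1 fell with the block, with a median of 0.04, where 8.67% of all genes rose and 8.37% fell. ADAM10, a protease that frees ligands, rose by 0.22 (SE 0.0572, adjusted p = 0.006326), and TIMP3, an inhibitor of such proteases, fell by 0.20 (SE 0.0573, adjusted p = 0.01353). No gene of this list rose without replicate 1 or replicate 2 of full medium or on the spike-in scale. In the other direction none fell without replicate 3 of full medium or with replicate 3 left out in all groups, and 2 fell without replicate 2 at 0.12 mM. Of 16 adaptor and RAS-ERK genes, 4 rose and 0 fell, with a median of 0.09. Among them SOS2 and SOS1, which load RAS with GTP, rose by 0.52 (SE 0.102, adjusted p = 0.0005707) and 0.20 (SE 0.0607, adjusted p = 0.02189). SHC1, an adaptor, rose by 0.21 (adjusted p = 0.01063), and 15.2% of its exons overlap other genes. Without replicate 2 of full medium 1 gene of this list rose and 1 fell. The count of genes that rose was 2 without replicate 3 of full medium, with replicate 3 left out in all groups or with no filter beyond 1 count, and 1 on the spike-in scale, where the list median was -0.01 and that of all genes -0.09. Of 15 genes of receptor down-regulation, 6 rose and 0 fell, with a median of 0.17. Among them EPS15, which serves receptor uptake, rose by 0.24 (adjusted p = 0.005923), and the ubiquitin ligase genes CBL and CBLB rose by 0.16 (adjusted p = 0.03494) and 0.45 (adjusted p = 0.04192). This count was 1 to 5 with any 1 library left out and 0 on the spike-in scale. It was 1 with no filter beyond 1 count and 2 with replicate 3 left out in all groups. It was also 1 without replicate 2 at 0.04 mM, replicate 3 at 0.20 mM or replicate 2 of full medium, and 2 without replicate 1 at 0.20 mM or replicate 3 at 0.28 mM. It was 3 without either replicate 1 or replicate 2 at 0.28 mM and without replicate 1 or replicate 3 of full medium.

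Of 18 genes that ERK induces, 8 rose and 0 fell, where 8.67% of all genes rose and 8.37% fell, with a median of 0.15 against 0.00 for all genes tested. PHLDA1 rose by 0.52 (SE 0.0709, adjusted p = 9.676e-06) and DUSP6, a phosphatase that acts on ERK, by 0.44 (SE 0.0598, adjusted p = 1.006e-05). These were the list genes that also passed without the block (adjusted p = 0.0475 each), as 0.289% of all genes did. Neither passed there with DESeq2 size factors or on the spike-in scale, and leaving out 1 library gave counts of 0 to 2. SPRED1, an inhibitor of RAS signalling, rose by 0.32 (SE 0.0664, adjusted p = 0.0009751). Of the exons of DUSP6 40.5% and of PHLDA1 16.5% overlap other genes, so without a strand rule their counts are uncertain. Without replicate 2 of full medium the count fell to 4 of 18, without replicate 3 of full medium to 5, and scaled to the spike-ins to 2. Without the libraries high in mitochondrial ribosomal RNA it was 8, and without replicate 3 in all groups 5. Without the block edgeR called 0 ligand release, 0 adaptor and 0 down-regulation genes, with unadjusted p under 0.05 for 0, 3 and 1 of them, and DESeq2 called 2 adaptor genes but 0 ligand release and 0 down-regulation genes. Of all 13828 genes tested, 1792 had an unadjusted p under 0.05 in that edgeR fit, and DESeq2 called 242.

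**Figure D5:**
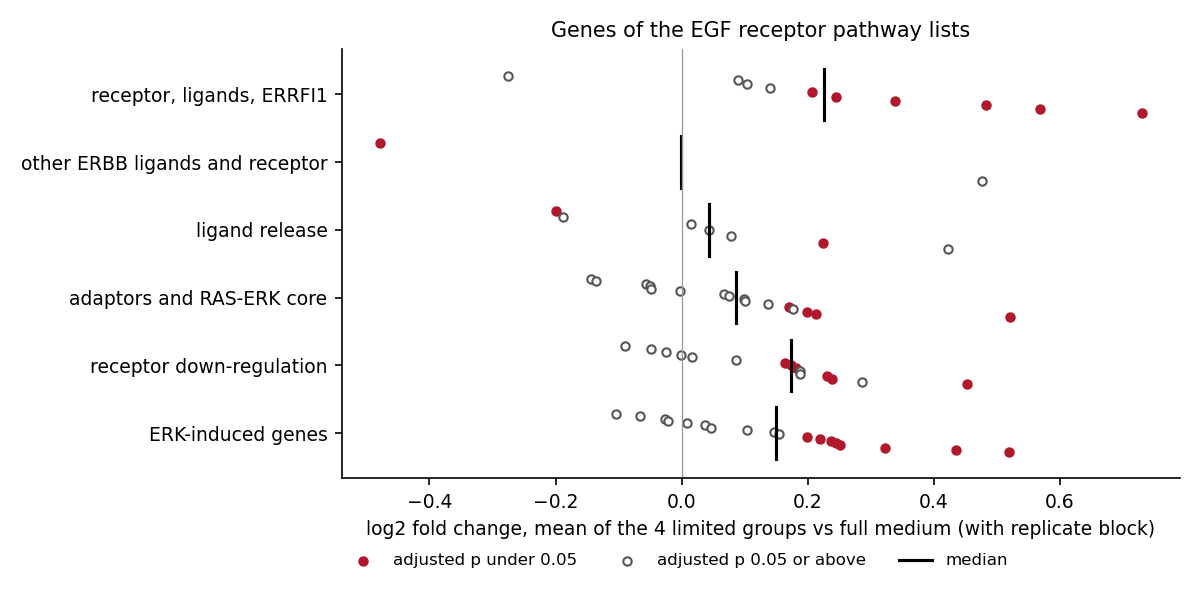
Log2 fold change (x axis) of each tested gene for the mean of the 4 limited groups over full medium with the replicate block, by list, with a black bar at the list median. Filled red points have an adjusted p under 0.05: 8 of 18 ERK-induced genes lie filled on the right and NRG1 is the filled point farthest left.

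MTHFD2L, the neighbour of EPGN on the other side and an enzyme of mitochondrial folate metabolism, had 88.4 ± 21.4 CPM at 0.04 mM and 65.8 ± 11.5 CPM in full medium (SD, n = 3 each). It rose for the mean of the limited groups by 0.37 (SE 0.0836, adjusted p = 0.002497 with the block and adjusted p = 0.285 without it). EPGN, which lies between MTHFD2L and EREG, did not pass in the same comparison.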

How the data were processed

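The table the authors deposited holds whole-number counts, not normalized, of 62754 Ensembl genes and 92 ERCC controls. Per the labels, ribosomal RNA was depleted before library preparation, and the submitters' processing notes name GRCh38.p14. No source used here names the aligner, annotation or strand setting. All 15 columns were matched to samples, with 0 left over, and 42343 genes received a symbol.

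Counts were tested as deposited with edgeR 4.0.16 (R 4.3.3): filterByExpr (minimum count 10, minimum total 15; 13828 genes kept), TMM factors and 1 coefficient per group fitted by quasi-likelihood to all 15 libraries, or to the 12 limited libraries for the slope. CPM used TMM-scaled library sizes and RPKM GENCODE 29 exon lengths. The planned fit had no block. The replicate numbers of the titles pair the libraries: with group means removed, 30 of 30 pairs sharing a number correlated above 0.1 (r 0.189 to 0.492), other pairs at -0.424 to 0.0552, and 15 of 15 libraries correlated best with their own number. What a number stands for is not given in the labels. Intervals are 95%. Alternatives were DESeq2 1.42.0, its size factors, ERCC scaling, other filters, the compared groups alone and libraries left out.

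The genes, the lists and the motifs were chosen with earlier results of these data known. All 10 genes are named; of each list at most 3 genes that rose and 3 that fell, by adjusted p; most like AREG and EGFR, the 5 with the highest r at a mean of at least 5 CPM. The code was tested on simulated data. Python 3.11.15 with pandas 2.3.3 and matplotlib 3.10.9 made tables and figures.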

Additional observations from a re-analysis of the deposited data

How the results depend on the processing

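Counts of calls in this section are of the EGF receptor genes unless all genes are named. Without the replicate block 0 of them were called in each of the 7 comparisons with any 1 library left out. Of all 13828 genes, 0 to 41 were called in these fits. The count of 41 was reached at 0.04 mM without replicate 1 of full medium and for the mean without replicate 1 at 0.04 mM. With the replicate block the counts were 4 at 0.04 mM, 3 at 0.12 mM, 4 at 0.20 mM, 2 at 0.28 mM and 6 for the mean of the limited groups, and 0 for 0.04 against 0.28 mM and for the slope. In edgeR with its planned settings the block changed the calls in the 5 comparisons with full medium and not in the other 2. Leaving out 1 library gave 2 to 6 calls at 0.04 mM, 1 to 4 at 0.12 mM, 1 to 5 at 0.20 mM, 0 to 4 at 0.28 mM and 2 to 7 for the mean. Over all 13828 genes these ranges were 963 to 2088, 550 to 1438, 988 to 1880 and 24 to 775 in order of concentration. For the mean the all-gene range was 1467 to 2409. Scaled to the ERCC spike-ins with the block, the calls among the EGF receptor genes were 2, 0, 1 and 0 in order of concentration and 3 for the mean. Of all 13828 genes, 506, 1206, 421 and 120 were called on that scale in order of concentration, and 1350 for the mean. The compared groups alone with the block gave 1 at 0.12 mM, 2 at 0.20 mM and 1 at 0.28 mM, against 272, 1652 and 304 of all genes. Replicate 3 left out in all groups gave 2, 1, 2 and 0 in order of concentration, against 996, 463, 985 and 1 of all genes. Leaving out libraries with over 1% mitochondrial ribosomal RNA gave 1 at 0.12 mM, against 873 of all genes. DESeq2 with the block gave 1 at 0.28 mM, where it returned no adjusted p for ERBB3, 1 for 0.04 against 0.28 mM and 1 for the slope. Of all genes it called 352, 23 and 24 in these comparisons. Without the block, DESeq2 or no filter on low counts gave 1 at 0.04 mM and 1 for the mean. Of all genes in these comparisons DESeq2 called 155 and 242 of 13828, and the fit with no filter 159 and 248 of 32760. All 15 libraries in the slope gave 1 call among the EGF receptor genes without the block and 4 with it. Of all 13828 genes this slope called 157 without the block and 2163 with it. It includes full medium, so these calls do not show a graded change among the limited groups.

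AREG kept its call with the block under every alternative at 0.04 mM, 0.20 mM and for the mean (0.39 to 0.52 for the mean), and at 0.12 mM under every one except ERCC scaling. Signs turned for genes that were not called. Scaled to the spike-ins with the block, EPGN was at -0.0944, EGFR at -0.0955, ERBB2 at -0.0331 and ERRFI1 at -0.0196 at 0.12 mM, and EGFR at -0.007 at 0.20 mM and -0.0188 at 0.28 mM. The median of all genes on that scale was -0.1768, -0.0448 and -0.1293 at these concentrations, and all of these values lay above it, at 0.12 mM by 0.0825, 0.0814, 0.1437 and 0.1573 for the 4 genes. On that scale ERRFI1 without the block was at -0.0445 at 0.12 mM, where the median of all genes was -0.1971. EPGN with the block was at -0.0147 at 0.12 mM with replicate 3 left out in all groups. At 0.28 mM it turned to 0.0015 with DESeq2 size factors, 0.0019 with DESeq2 and 0.0007 with the compared groups alone, and ranged from -0.0696 to 0.1117 with 1 library left out (0.0235 without replicate 2 of that group). EGFR ranged from -0.0034 to 0.123 at 0.12 mM and from -0.0161 to 0.083 at 0.20 mM. TGFA without the block ranged from -0.0163 to 0.482 at 0.12 mM and from -0.0673 to 0.4302 at 0.20 mM, lowest without replicate 3 of full medium. BTC for the mean ranged from -0.8727 to 0.3065, and was at 0.3398 with replicate 3 left out in all groups. The slope of EREG without the block ranged from -0.1412 to 0.0031, and the slope of ERBB3 over all 15 libraries was -0.088 without the block and -0.097 with it. The causes were not tested.

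List counts under alternatives were added after the data were seen. Depth limits BTC and ERBB3 most.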
